A study of Mus musculus with 2 samples.

Results

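The genes described here are the nuclear genes for subunits of oxidative phosphorylation, read in single cells of the olfactory epithelium of a mouse. They were taken by symbol: all features matching Nduf with a letter a, b, c, s or v and a digit, Cox4 to Cox8, Uqcr or Atp5, without the assembly factors named Ndufaf and without pseudogenes. The rule gave 80 of 31053 features, with 79 symbols because Atp5o has a second identifier without a count. Sorted by symbol, 35 were placed in complex I, 8 in complex III, 20 in complex IV and 17 in complex V, the last with both Atp5o identifiers. A place given by symbol does not show that a gene encodes a structural subunit. Of the 80, 78 had at least 1 unique molecular identifier (UMI, 1 captured transcript) in the cells kept, and 74 stood at 10 or more UMIs per 1000000 UMIs (CPM) over all of them.

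Tissue came from a male C57BL/6 mouse in which 1 nostril was closed at postnatal day 14 (unilateral naris occlusion), taken at postnatal day 28. Every cell compared here carries that strain, sex, age and operation, and the labels give 1 library from the closed (L) and 1 from the open (R) side. Frozen dissociated cells, described as all cells of the epithelium, passed a dead cell removal step and were loaded to capture about 10000 in each library with the Chromium 3′ v3 kit. The deposited matrix marks its barcodes with suffix 1 or 2, and no label ties a suffix to a side, so the libraries are called 1 and 2 and no side is assigned to either. There are no replicates. No p-value is given, and intervals are exact 95% Poisson or binomial intervals that cover counting error only.

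Library 1 held 4501 barcodes and 27212821 UMIs, and library 2 held 7990 barcodes and 49221001 UMIs. Filters kept 3032 and 5266 cells, with medians of 5528 and 5139.5 UMIs. The libraries shared 12 barcodes, 6 of them kept. Clustering without the subunit genes gave 32 clusters, of which 28 took the name of 20 classes from marker genes and 4 (clusters 4, 9, 17 and 23) stayed unnamed. Names end in "-like" because they rest on transcripts. Omp, the olfactory marker protein, was at 5671 CPM in cells called mature olfactory sensory neuron (OSN)-like and at 144 CPM in immature OSN-like cells. Gap43, a growth cone protein, was at 53.2 CPM in mature and 1344 CPM in immature OSN-like cells. Both genes were among the markers used for naming, so their levels describe the names and do not test them. Cells of blood and marrow were present in both libraries as well, although the labels name epithelial cells.

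Oxidative phosphorylation takes place in the inner mitochondrial membrane. Complexes I (NADH dehydrogenase), III (cytochrome bc1) and IV (cytochrome c oxidase) pass electrons to oxygen and pump protons, and complex V (ATP synthase) uses the proton gradient to make ATP. A few core subunits are encoded in mitochondrial DNA and the others in the nucleus, and some complex IV subunits have isoforms known from heart, skeletal muscle, testis or lung. OSNs are born from globose basal cells (GBCs), pass through intermediate neuronal precursors (INPs) and an immature stage, and then carry odour transduction in cilia with an axon to the olfactory bulb.

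Promoter sequences are shown for 4 members that differ between classes of at least 100 cells, picked after their values had been seen: Ndufv3, highest in mature OSN-like cells, Cox6b2 and Atp5g2, highest in GBC-like cells, and Cox8b, highest in ionocyte-like cells. None is shown for Cox6a2 and Ndufa4l2, which are high in smaller classes. RefSeq sequences on GRCm38.p6, the build of mm10, run 5′ to 3′ from 250 bases before to 50 bases after the gene start, and capitals mark motif matches. They were available for 65 of the 79 symbols, 2 of them matched by an older symbol.

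The windows are these.
Ndufv3 (chr17:31519865-31520164, plus strand): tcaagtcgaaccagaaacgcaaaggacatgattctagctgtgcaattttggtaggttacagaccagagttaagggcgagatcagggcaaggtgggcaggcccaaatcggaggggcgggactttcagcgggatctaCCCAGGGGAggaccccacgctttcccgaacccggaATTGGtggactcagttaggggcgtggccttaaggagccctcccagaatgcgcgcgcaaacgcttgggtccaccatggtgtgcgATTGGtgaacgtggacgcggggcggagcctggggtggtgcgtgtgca
Cox6b2 (chr7:4753045-4753344, minus strand): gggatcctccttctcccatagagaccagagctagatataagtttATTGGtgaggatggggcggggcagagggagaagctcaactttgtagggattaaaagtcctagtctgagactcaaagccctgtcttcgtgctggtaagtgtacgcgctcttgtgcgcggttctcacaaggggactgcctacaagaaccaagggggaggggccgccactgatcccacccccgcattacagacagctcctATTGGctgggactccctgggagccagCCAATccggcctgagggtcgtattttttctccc
Atp5g2 (chr15:102670998-102671297, minus strand): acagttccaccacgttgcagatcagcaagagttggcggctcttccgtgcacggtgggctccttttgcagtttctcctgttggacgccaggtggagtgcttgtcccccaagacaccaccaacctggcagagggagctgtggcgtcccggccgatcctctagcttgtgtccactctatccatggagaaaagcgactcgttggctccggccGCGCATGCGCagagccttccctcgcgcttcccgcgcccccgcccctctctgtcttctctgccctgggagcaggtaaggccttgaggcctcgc
Cox8b (chr7:140900397-140900696, minus strand): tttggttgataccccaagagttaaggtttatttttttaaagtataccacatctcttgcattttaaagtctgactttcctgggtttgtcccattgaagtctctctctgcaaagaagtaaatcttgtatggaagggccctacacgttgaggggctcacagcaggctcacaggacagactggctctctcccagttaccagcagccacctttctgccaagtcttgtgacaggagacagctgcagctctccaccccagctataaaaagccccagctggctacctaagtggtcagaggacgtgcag

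Of 6 motifs searched on both strands, the CCAAT box (CCAAT, or ATTGG on the other strand) gives the capitals in Cox6b2 (3 matches) and the last 2 of the 3 runs in Ndufv3. The first run in Ndufv3 is the EBF motif, read on the minus strand of the window. Those in Atp5g2 are the NRF1 motif GCGCATGCG, whose 2 matches, 1 on each strand, overlap by all but their end bases. The Cox8b window held none of the 6. Among the 65 promoters, 28 (43.1%) held CCAAT, beside 41.1% of 27025 promoters of the same length. NRF1, the nuclear respiratory factor motif, was in 8 (12.3%, beside 1.95%), the ETS/GABP motif CCGGAAGT in 5 (7.69%, beside 4.31%), and the YY1 motif AAGATGGCG in 7 (10.8%, beside 1.64%). The ERR motif TCAAGGTCA was in 1 (1.54%, beside 0.466%), and the EBF motif TCCCNNGGG in 5 (7.69%, beside 7.48%). A match describes the letters in these windows and not a bound site.

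Over all kept cells the 80 genes held 1724958 UMIs, which was 2.90% of the total, 2.88% in library 1 and 2.91% in library 2. Complex I gave 31.2% of these UMIs, complex III 11.6%, complex IV 30.6% and complex V 26.6%. The kit counts 3′ ends, so a UMI count does not grow with transcript length. Many subunit genes have processed copies in the genome, and the sources used here do not say how reads shared with them were counted, so single-gene levels carry that uncertainty. The highest levels belonged to small subunits. Cox8a, a complex IV subunit, was at 1519 CPM and had a UMI in 96.2% of cells. Ndufa4, long filed under complex I and now counted with complex IV, was at 1210 CPM, followed by Atp5e at 1047 CPM, the epsilon subunit of the ATP synthase stalk, and Cox6c at 1020 CPM. Uqcrh, the hinge protein of complex III, reached 812 CPM, ahead of Uqcr11 (648 CPM) and Uqcrq (586 CPM). Atp5l (801 CPM) and Atp5g2 (767 CPM), which sit in the membrane part of ATP synthase, followed Atp5e in complex V. Ndufa7 (497 CPM), Ndufv3 (493 CPM) and Ndufb9 (460 CPM) led complex I. Core subunits of complex I spanned a wide range. Ndufs7, which holds an iron-sulphur cluster, was at 227 CPM and Ndufv2 at 189.9 CPM, while Ndufv1, which binds the flavin, was at 91.7 CPM and Ndufs1, which carries iron-sulphur clusters, at 38.1 CPM. At the other end, Cox7b2 had no UMI and Cox8c had 1.

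Mature OSN-like cells carried the largest share of subunit transcripts of the 24 classes and unnamed clusters. The share was 4.53% of UMIs over 909 cells, with 4.41% (4.38 to 4.44) in library 1 and 4.66% (4.63 to 4.68) in library 2. Cluster 4, 423 cells led by Stmn4, Kirrel2 and S100a5 with Omp at 2787 and Gap43 at 634 CPM, came next with 4.22%. Ionocyte-like cells, which carry the chloride channel gene Cftr and the transcription factor gene Foxi1, had 3.68% over 141 cells (3.80% in library 1 and 3.62% in library 2). Immature OSN-like cells had 3.31%, GBC-like cells 3.18% and INP-like cells 2.91%. In the supporting and stem cells of the epithelium the share was lower, 2.81% in 1711 sustentacular-like cells, 2.31% in 826 horizontal basal cell (HBC)-like cells and 2.07% in Bowman's gland-like cells, the mucus glands. Among the named classes of blood cells, each pooled over its clusters, it ran from 1.93% in macrophage/monocyte-like to 2.55% in plasmacytoid dendritic-like cells. Single clusters within the neutrophil-like class, given below, lay on both sides of that range. Mural-like cells, the contractile cells of vessel walls, stood at 3.30%, but on 26 cells and with 2.78% in library 1 against 3.57% in library 2. Both libraries placed mature OSN-like cells first and cluster 4 second.

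**Figure D1:**
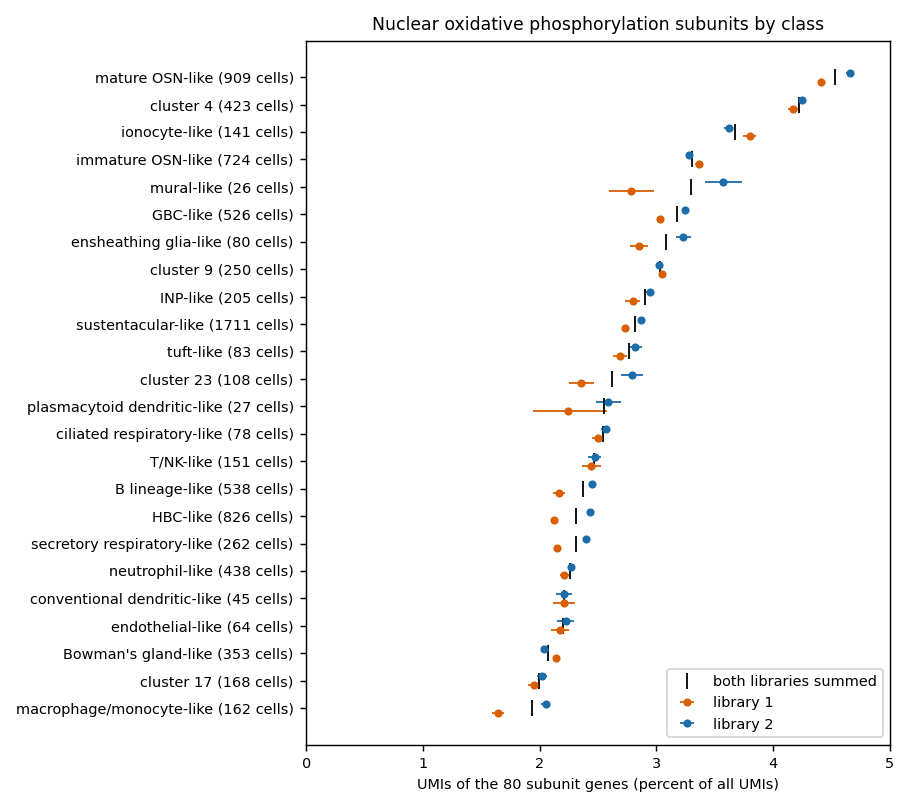
UMIs of the 80 nuclear subunit genes as percent of all UMIs (x axis) in each class or unnamed cluster (y axis, with its number of cells). Dots are the summed cells of library 1 or 2 with exact 95% Poisson intervals, and ticks are both libraries summed. Mature OSN-like cells lie at 4.41% and 4.66%, to the right of every other class in both libraries.

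The share also varied from cell to cell. In mature OSN-like cells the median cell had 4.46% and the middle range between quartiles ran from 3.94% to 4.96%, which lies above the upper quartile of sustentacular-like cells (quartiles 2.53% and 3.08%). With every cell thinned to 2000 UMIs, so that depth was the same, the mean ± SD over cells was 4.49% ± 0.882 in 893 mature OSN-like cells and 2.79% ± 0.505 in 1645 sustentacular-like cells. Counting alone would give SDs of 0.474 and 0.374. Ionocyte-like cells were at 3.98% ± 1.09 over 137 cells, against 0.446 from counting. Neutrophil-like cells were at 1.82% ± 1.09 over 398 cells, against 0.301 from counting. These SDs are over cells of 2 libraries and are not errors of the class.

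Which class was highest differed from gene to gene. Over the 17 classes and unnamed clusters of at least 100 cells, 77 members reached 10 CPM somewhere. Of these, 36 had their highest level in mature OSN-like cells, 29 of them in each library taken alone. Ionocyte-like cells held the highest level of 17 (13 in each library), cluster 4 of 6, immature OSN-like cells of 5, and INP-like, GBC-like cells and cluster 23 of 3 each. How many of all genes peaked in each class was not counted, so these counts have no background. They use shares of all UMIs, a total that includes ribosomal protein transcripts. Ndufa7, Ndufb9 and Ndufs4 of complex I peaked in immature OSN-like cells in each library. Ndufa8 and Ndufs3, also of complex I, peaked in INP-like cells, and Atp5g2 and Cox6b2 in GBC-like cells. From the lowest to the highest class the median fold over members was 2.96. It was smallest for Ndufa2 (1.93) and, among the larger ones, 10.1 for Ndufv3 (199 to 2013 CPM) and 23.7 for Cox7a1, the largest. The Cox7a1 fold runs from 2.30 CPM in T/NK-like to 54.6 CPM in INP-like cells, so it rests on a level near 0 and is uncertain. A fold was not computed for 5 members that had no count in a class.

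The neuronal lineage was followed through 8 clusters, ordered by marker genes that include Neurod1, Gap43 and Omp after the clusters had been seen. The share was 3.20% in cluster 19, a cycling GBC-like cluster, and 3.33% in cluster 11, another GBC-like cluster. It was 2.85% in cluster 22, a cycling cluster rich in Neurod1, and 2.91% in the INP-like cells. From there it was higher at each step, with 3.16% in cluster 12 and 3.37% in cluster 3, both immature OSN-like, then 4.22% in cluster 4 and finally 4.53% in mature OSN-like cells. Each library gave the same order from cluster 22 on, from 2.75% to 4.41% in library 1 and from 2.90% to 4.66% in library 2. The largest step lay between cluster 3 and cluster 4.

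The 4 complexes did not keep a fixed ratio along this course. Complex I was at 9085 CPM in cluster 19 and 15766 CPM at the mature stage, whereas complex V was at 9752 and 10336 CPM. Complex V was lowest in cluster 12, at 7573 CPM. Complex III was at 3682 CPM in cluster 19, 3170 CPM in cluster 22 and 4577 CPM in mature OSN-like cells, and complex IV at 9441, 8604 and 14658 CPM. Complex I thus made up 34.8% of subunit UMIs in mature OSN-like cells, the highest of the 17 larger classes, and complex V 22.8%, the lowest. Cluster 4 had 33.7% and 23.0%, immature OSN-like cells 33.2% and 23.4%, and GBC-like cells 28.3% and 29.7%. The single gene Ndufv3 gave 4.44% of subunit UMIs in mature OSN-like cells. Complex I was not summed without it, so its first rank may rest on that gene. Transcripts of ribosomal proteins moved against this, from 232760 CPM in cluster 19 to 58078 CPM in mature OSN-like cells, and every other gene's share is read against a total that includes them. With mitochondrial DNA-encoded, receptor and ribosomal genes left out of the total, the difference in complex V between mature OSN-like and GBC-like cells changed sign, from a log2 difference of 0.13 to -0.13. Complex I stayed higher, at 0.81 and 0.55.

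**Figure D2:**
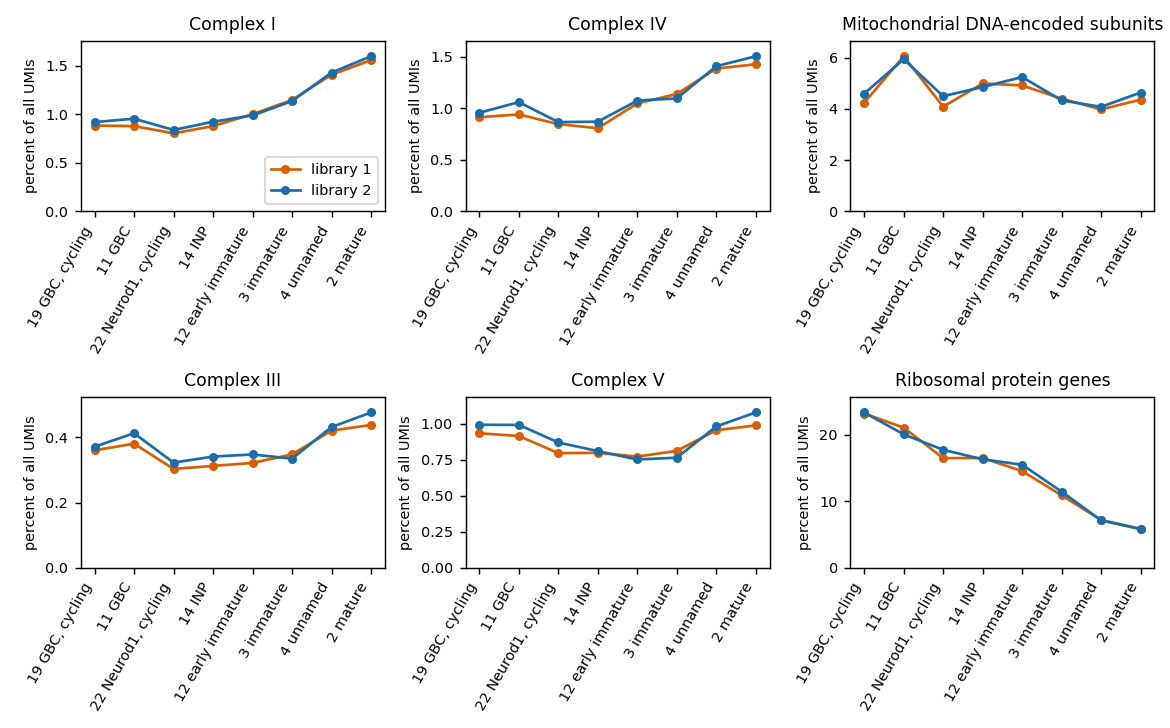
Summed UMIs of each complex's nuclear subunit genes, of the mitochondrial DNA-encoded subunits and of ribosomal protein genes, as percent of all UMIs (y axes, from 0) in 8 clusters ordered from GBC-like to mature OSN-like cells (x axis). Lines are libraries 1 and 2. Complex I ends far above its start (9085 to 15766 CPM) while complex V dips to 7573 CPM in the middle and ends near its start.

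Mature and immature OSN-like cells were then compared gene by gene. Summed, the members were at 44093 CPM in mature and 33615 CPM in immature cells of library 1, and at 46564 and 32807 CPM in library 2. That is a log2 difference of 0.46 (0.45 to 0.47), or 1.37-fold, with 0.39 in library 1 and 0.51 in library 2. A gene was counted where either stage reached 10 CPM and the log2 difference of CPM + 1 went the same way in both libraries by at least 1.5-fold. Of 72 members counted, 19 were higher in mature cells by that measure and 0 were lower, beside 17.9% and 21.2% of the 9829 genes counted. Among genes at 100 CPM or more, where most members lie, the background was 25.9% and 23%. The share of members that were 1.5-fold higher (19 of 72) is therefore near that of well expressed genes. Smaller differences in the same direction were common: 53 members were above 0 in both libraries (background 37%, or 44.8% at 100 CPM) and 7 below (45.8% and 46.6%). With mitochondrial DNA-encoded, receptor and ribosomal genes left out of the total, 46 were above 0 and 16 below, and the sum was 0.36 higher. The median member stood at 0.44 (0.34 and 0.53 in the libraries) and the median of all genes at -0.08. By complex, the counts of genes higher by 1.5-fold were 11 of 35 in complex I, 1 of 8 in III, 3 of 13 in IV and 4 of 16 in V.

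Ndufv3 stood furthest out. It encodes an accessory subunit of the NADH-oxidising arm of complex I (chromosome 17, 31520115 to 31531331, plus strand). In library 1 it was at 463 CPM in immature OSN-like cells and 2045 CPM in mature ones, and in library 2 at 491 and 1982 CPM. All mature values lie above all immature ones, and the pooled log2 difference was 2.06 on 1771 and 9119 UMIs. Along the lineage Ndufv3 was between 190 and 348 CPM in clusters 19, 11, 22, 14 and 12, 535 CPM in cluster 3 and 1609 CPM in cluster 4. Sustentacular-like cells had 328 CPM. No other member differed so much between these stages.

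The next largest differences were smaller. Atp5s went from 12.8 to 35.1 CPM, a log2 difference of 1.39 on only 47 and 159 UMIs. Despite its name Atp5s (also Dmac2l) is not a structural subunit of ATP synthase. Ndufa13, a complex I subunit also known as GRIM-19, was at 340 and 799 CPM in immature and mature cells of library 1 and 319 and 792 CPM in library 2 (log2 1.29 pooled). Ndufs7, a core subunit with an iron-sulphur cluster, was 1.13 higher and Ndufb4, of the membrane arm, 1.10 higher on the log2 scale. In complex IV, Cox8a was 1.07 higher (1018 to 2144 CPM), Cox5a 0.98 higher and Cox5b 0.88 higher. Atp5b, the catalytic beta subunit of ATP synthase, was 0.84 higher. In complex III, Uqcrc1, a core protein on the matrix side, was 0.67 higher, and it was the 1 member of that complex past 1.5-fold in both libraries.

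The 5 members at the low end were within 1.5-fold in both libraries. Ndufa8 was at 255 and 182 CPM in immature and mature cells of library 1 and at 264 and 189 CPM in library 2 (log2 -0.49). Ndufa6 was at -0.23, Ndufs5 at -0.20 and Ndufb9 at -0.13 in log2. These 4 belong to complex I and were lower in both libraries, inside a complex whose sum, with Ndufv3 included, was 0.52 higher. Atp5g1 was at -0.45 in library 1 and 0.04 in library 2, so its direction was not shared. Cox7a1 likewise differed between libraries, at -0.16 and 1.11, on 72 and 138 UMIs.

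**Figure D3:**
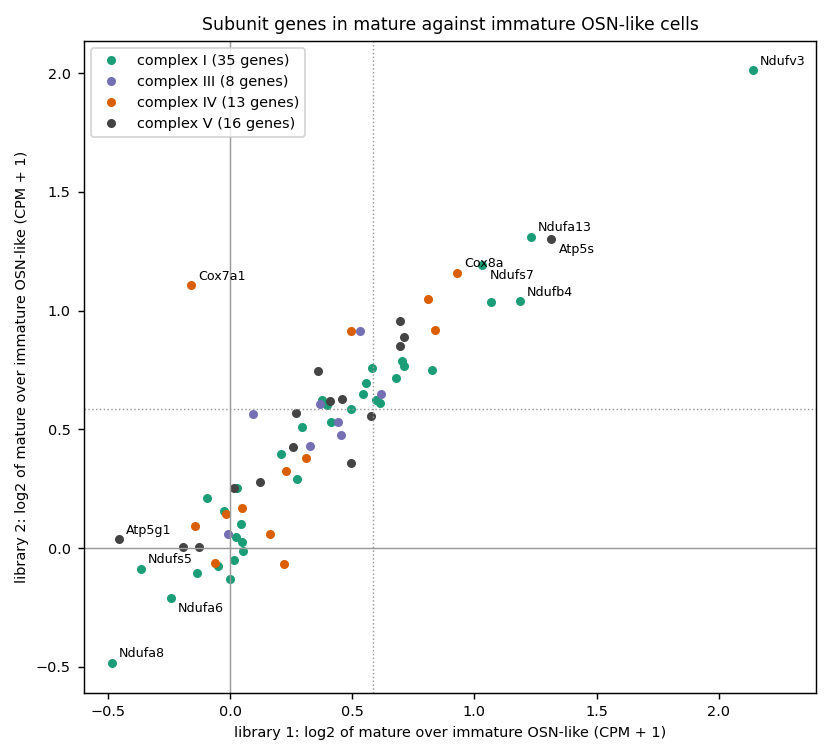
Each dot is 1 of 72 subunit genes, placed by its log2 difference of CPM + 1 between mature and immature OSN-like cells in library 1 (x axis) and library 2 (y axis), coloured by complex. Ndufv3 lies apart at 2.14 and 2.01, and 53 genes lie above 0 on both axes.

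Against GBC-like cells, the dividing progenitors, the members split more widely. Summed members were 0.51 higher in mature OSN-like cells on the log2 scale (0.54 in library 1 and 0.52 in library 2). Of 73 counted, 23 were 1.5-fold or more higher and 3 lower in both libraries, beside backgrounds of 33.2% and 28.5% (41.3% and 30.5% at 100 CPM), so the count of higher members was near the share of all genes and under that of genes at 100 CPM, and the count of lower members was under both. Above 0 in both libraries were 61 (background 48.6%, or 54.7% at 100 CPM), and 8 were below (42.2% and 41.4%). On the total without mitochondrial DNA-encoded, receptor and ribosomal genes, the sum was only 0.26 higher, with 51 members above 0 and 16 below. Ndufv3 was again largest, at 218 CPM in GBC-like and 2045 CPM in mature cells of library 1 and 248 and 1982 CPM in library 2 (log2 3.07). Cox7a1 was 2.13 higher, on 38 and 138 UMIs, with 1.40 and 2.60 in the libraries. Ndufb4 (1.57), Ndufa1 (1.41), an X-linked subunit needed for complex I assembly, and Ndufa13 (1.34) followed.

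The 3 that were lower were Cox6b2, Atp5g2 and Atp5g1. Cox6b2, known as the testis isoform of a complex IV subunit facing the intermembrane space, had 820 UMIs in GBC-like cells and 1 in mature OSN-like cells. Atp5g2 was at 1276 CPM in GBC-like and 515 CPM in mature cells of library 1, and at 1322 and 562 CPM in library 2 (log2 -1.28). Atp5g1 was 547 and 328 CPM, a log2 difference of -0.74. Atp5g1, Atp5g2 and Atp5g3 encode the same mature c subunit of the ATP synthase ring with different import sequences. Atp5e (-0.32) and Ndufa8 (-0.24) were lower by less than 1.5-fold.

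The balance of the 3 c subunit genes moved from cluster to cluster. Atp5g2 gave 62.2% of their UMIs in cluster 19, 56.7% in cluster 11 and 61.1% in cluster 22. It gave 44.4% in the INP-like cells, 39.1% in cluster 12, 40.1% in cluster 3, 39.8% in cluster 4 and 37.9% at the mature stage. Atp5g3 moved the other way, from 13.05% in cluster 19 to 39.0% in mature OSN-like cells, and Atp5g1 was between 23.0% and 33.8% throughout. In CPM, Atp5g2 went from 1497 in cluster 19 to 593 in the INP-like cells while Atp5g3 stood at 314 and 324, so the first part of this turn lies in Atp5g2. Atp5g3 then reached 522 CPM in cluster 4 and 553 CPM in mature OSN-like cells. Over all kept cells the shares were 24.5%, 52.1% and 23.4% for Atp5g1, Atp5g2 and Atp5g3.

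The earlier part of the lineage had less of a common direction. Between immature OSN-like and GBC-like cells, 11 of 73 members were 1.5-fold or more higher and 3 lower in both libraries, beside 30.4% and 20.7% of all genes (34% and 23.2% at 100 CPM). Above 0 were 39 (background 51.3%, or 52.9% at 100 CPM) and below 0 were 23 (36.8% and 41%), and the median member, at 0.08, lay under the median of all genes, at 0.21. Complex I was 0.28 higher and complex V 0.29 lower on the log2 scale (-0.29). Cox6a1, the ubiquitous isoform of a complex IV regulatory subunit, was at 315 CPM in GBC-like and 635 CPM in immature OSN-like cells (log2 1.01), Ndufv3 at 1.01 and Ndufb8 at 0.92. Atp5g2 was at -1.43, Atp5b at -0.71 and Cox8a at -0.64, the last from 1589 to 1018 CPM, so that of these 3 stages Cox8a was lowest in the immature and highest in the mature one. The sum of all members changed sign with the denominator, from 0.06 to -0.10 without mitochondrial DNA-encoded, receptor and ribosomal genes, and then 4 members were higher and 5 lower.

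Sustentacular-like cells are the supporting cells that surround the neurons. Against them mature OSN-like cells had 34 of 73 members 1.5-fold or more higher and 1 lower in both libraries (backgrounds 35.2% and 25.4%, or 41.9% and 29.3% at 100 CPM). Members above 0 in both were 64 (background 52%, or 55.7% at 100 CPM) and below 0 were 7 (39.2% and 41.2%). Complex I was 0.86 and complex IV 0.82 higher on the log2 scale, complex III 0.39 and complex V 0.43. After Ndufv3 (2.62) the largest differences were Cox5a (320 to 1187 CPM, log2 1.89), Ndufb8 (1.85) and Cox5b (1.82). The 1 lower member was Cox8b, at 491 UMIs in sustentacular-like and 5 in mature OSN-like cells. Atp5g2 (-0.56) and Ndufs5 (-0.37) were lower by less.

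Ionocyte-like cells were compared with sustentacular-like cells too. Of 74 members, 9 were 1.5-fold or more higher and 0 lower in both libraries, beside 16.1% and 7.25% of all genes (11.9% and 16.1% at 100 CPM), and 60 were above 0 (48.7%, or 46.5% at 100 CPM) and 3 below (26.5% and 39.4%). Their sum was 0.39 higher on the log2 scale (0.47 in library 1, on 52 cells, and 0.34 in library 2, on 89 cells). Complex IV was 0.49 higher, complex V 0.42, complex III 0.38 and complex I 0.25, so here complex I moved least. The 9 were Cox6b2 (21 and 27 UMIs), Cox8b, Ndufc2 (log2 0.95), Cox5a (0.87), Uqcrb (0.80), Cox7a2, Atp5g1, Atp5g3 and Atp5j.

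Blood cells showed the widest range within 1 named class. Neutrophil-like cells fell into cluster 15, with granule genes of young neutrophils such as Elane and Mpo, and cluster 10, with Retnlg and Mmp8 of later ones. The pair was picked after the clusters had been seen, and it leaves out unnamed cluster 23. That cluster, led by Il1b, held the neutrophil markers Csf3r and Cxcr2 but fewer than the 3 needed for a name. Thinned to 2000 UMIs, its mean share was 2.295%, over only 20 of its 108 cells. The mean was 2.68% over 182 cells in cluster 15 and 1.09% over 216 cells in cluster 10. The low share was thus not common to every cluster with neutrophil markers. Summed members were at 28402 CPM in cluster 15 and 12683 CPM in cluster 10. Of 71 members, 62 were 1.5-fold or more lower in cluster 10 in both libraries and 0 higher, beside 46.1% and 11.4% of all genes (55.6% and 14.1% at 100 CPM). Below 0 in both libraries were 69 (background 63.3%, or 69.4% at 100 CPM). The median member was at -1.29 and the median gene at -0.80. Atp5g1 went from 652 to 88.6 CPM (log2 -2.87) and Atp5g2 from 801 to 155 CPM (-2.37), while Ndufa13 was at 295 and 269 CPM (-0.14). The 10 highest nuclear genes took 47.9% of UMIs in cluster 10 and 17.2% in cluster 15, and their part in the result was not tested. B lineage-like cells had a smaller step, from cluster 13, with Vpreb3 and Igll1 of precursors, to cluster 7, with Ms4a1 and Ighd. Sums were 28534 and 19867 CPM. Of 72 members, 17 were lower and 1 higher in both libraries (backgrounds 15.8% and 13.4%, or 20.9% and 10.3% at 100 CPM). The share of lower members is thus near that of genes at 100 CPM. Below 0 in both libraries were 57 (background 34.4%, or 49.2% at 100 CPM).

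Subunits encoded in mitochondrial DNA did not move with the nuclear ones. Between immature and mature OSN-like cells, 0 of the 13 genes passed 1.5-fold in both libraries either way. Of all genes, 17.9% were higher in mature cells and 21.2% lower. The 13 together were at 45765 CPM in immature and 44989 CPM in mature OSN-like cells, and their median log2 difference was -0.00. The ratio of nuclear to mitochondrial DNA-encoded subunit UMIs was therefore 0.722 in immature OSN-like cells and 1.01 in mature ones, with 1.04 in cluster 4. It was 0.619 in GBC-like, 0.594 in INP-like, 0.481 in ionocyte-like and 0.361 in sustentacular-like cells, where mitochondrial DNA-encoded subunits reached 77915 CPM. Compared with sustentacular-like cells, 9 of the 13 were lower in mature OSN-like cells by that measure (median log2 -0.97), beside 25.4% of all genes (29.3% at 100 CPM). The filter on mitochondrial UMIs, at most 10% of a cell, acts on this ratio, which without any filter was 0.923 for mature OSN-like cells and 0.234 for sustentacular-like ones.

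Other genes of mitochondrial energy supply were read from lists, chosen with earlier results of these data known, and compared between mature and immature OSN-like cells by the same count. Of 21 genes for pyruvate entry and the citric acid cycle, 6 were higher and 0 lower, with a median log2 difference of 0.52. Idh3a, a subunit of isocitrate dehydrogenase, was at 1.12 on the log2 scale and Sucla2 at 0.97. Of 10 genes of complex II and electron carriers, 2 were higher and 0 lower (median 0.50), led by Sdhd (70.2 to 145 CPM, 1.04) and Cycs, cytochrome c (309 to 547 CPM, 0.82). Etfa of that list was at 0.63 pooled. Of 36 assembly factors at 10 CPM or more, 3 were higher and 1 lower (median 0.17), and the largest difference was Sco2 (1.21), a copper chaperone for complex IV, ahead of Coa6 (1.03) and Cox15 (0.85). Over all genes of this comparison 17.9% were higher and 21.2% lower (25.9% and 23% at 100 CPM), so the counts of higher genes in the first and second lists are near the background and that of assembly factors is under it.

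Of 9 genes that use or carry ATP, 3 were higher and 0 lower (median 0.50). The counts here and in the lists that follow stand beside the same 17.9% and 21.2% of all genes. Ckb, creatine kinase, was at 646 and 2414 CPM (log2 1.90), and Slc25a5, an ATP and ADP exchanger of the inner membrane, at 1.67. Glycolysis went both ways, with 7 of 18 higher and 4 lower. Ldha, lactate dehydrogenase A, had 204 UMIs in immature and 15 in mature cells, a ratio in CPM of 16.8 (9.93 to 30.5), while Pfkp, a phosphofructokinase, was 2.60 and Pgam1, phosphoglycerate mutase, 2.54 higher on the log2 scale. Among 11 regulators of subunit genes, 3 were higher and 2 lower (median -0.15). Ppargc1a, the coactivator PGC-1alpha, had the largest ratio of that list, from 4.35 to 70.8 CPM in library 1 and from 10.7 to 99.5 CPM in library 2 (32 and 386 UMIs, log2 3.15). Ppargc1b was at 2.53 on 4 and 50 UMIs, and Gabpb1, a GABP subunit, at -1.32. Of 7 stress and apoptosis genes, 0 were higher and 2 lower (Bbc3 at -1.17 and Atf3 at -0.72), and of 83 ribosomal protein genes 0 were higher and 69 lower (median -1.06).

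In the other comparisons the same lists gave different counts. Between mature OSN-like and GBC-like cells, 11 of 21 citric acid cycle genes were higher and 2 lower (median 0.81), and 13 of 38 assembly factors were higher and 3 lower (0.31). Over all genes 33.2% were higher and 28.5% lower (41.3% and 30.5% at 100 CPM), and the share of higher assembly factors is near that. Glycolysis again went both ways, with 7 of 18 genes higher and 4 lower (median 0.82). The largest difference of that list was Hk2, hexokinase 2, with 1015 UMIs in GBC-like cells and 10 in mature ones. Between ionocyte-like and sustentacular-like cells, 3 of 10 regulators were higher and 0 lower (median 0.41), beside 16.1% and 7.25% of all genes. They were Ppargc1a (22 and 38 UMIs, 1.58 and 27.0 CPM), Nrf1 (17.1 and 39.7 CPM), which encodes nuclear respiratory factor 1, and Esrrg, an oestrogen-related receptor, with 0 UMIs in sustentacular-like cells and 54 in ionocyte-like cells (38.3 CPM).

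Isoforms of complex IV subunits known from single tissues marked different classes here. Each is given beside its ubiquitous partner, with the share of cells holding a UMI after thinning to 2000 UMIs, and with a class in which the gene was at or near 0 as background.

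Cox6b2 (chromosome 7, 4751792 to 4753094, minus strand) was highest in GBC-like cells, at 120 CPM in library 1 and 140 CPM in library 2. In thinned cells a UMI was seen in 124 of 519 (23.9%, 20.3 to 27.8), against 0 of 893 mature OSN-like cells. A count of 0 allows up to 3 cells, or 0.336%, to hold a UMI at this depth, which is no limit on cells that express the gene. Thinning left out 7 and 16 shallower cells. Unthinned, the share in GBC-like cells was 55.9% at a median of 10231.5 UMIs, and that in mature OSN-like cells 0.110% at 4958 UMIs. The CPM ratio between these classes was 607 (109 to 24008), the width coming from the single UMI in mature cells. Within GBC-like cells it was at 249 CPM in cluster 19 (256 and 246 CPM in the libraries), 96.5 CPM in cluster 11 and 39.5 CPM in cluster 22. Of the UMIs of Cox6b1 and Cox6b2 together, Cox6b2 gave 23.7% in cluster 19, 9.79% in cluster 11, 4.69% in cluster 22, 1.37% in INP-like cells and 0.0216% in mature OSN-like cells. Mki67, a proliferation marker, was at 415 CPM in cluster 22 and 362 CPM in cluster 19, so these clusters with unequal Cox6b2 both held cycling cells. Lower levels of Cox6b2 were found in cluster 17, which is led by collagen genes (50.5 CPM), and in neutrophil-like cluster 15 (31.4 CPM).

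Cox6a2 (chromosome 7, 128205435 to 128206387, minus strand), the heart and skeletal muscle isoform, was found mainly in plasmacytoid dendritic-like cells, which held 241 of its 288 UMIs in 27 cells. It was at 3254 CPM in library 1 and 2514 CPM in library 2, on 29 and 212 UMIs. Of thinned cells, 25 of 26 (96.2%, 80.4 to 99.9) had a UMI, against 1 of 148 macrophage/monocyte-like cells (0.676%), with 1 and 14 cells left out. Unthinned shares were 96.3% and 1.85%, at medians of 3088 and 4114 UMIs. Cox6a2 gave 93.8% (90.1 to 96.4) of the Cox6a UMIs in this class, and its partner Cox6a1 was at 172 CPM. B lineage-like cluster 13 followed with 27 UMIs (50.8 CPM), and 9 UMIs in ionocyte-like cells came from 1 cell. Mature and immature OSN-like cells had no Cox6a2 UMI.

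Cox8b (chromosome 7, 140898945 to 140900446, minus strand), known from heart, muscle and brown fat, was at 366 CPM in library 1 and 221 CPM in library 2 in ionocyte-like cells. A UMI was seen in 51 of 137 thinned cells (37.2%, 29.1 to 45.9), against 1 of 893 mature OSN-like cells (0.112%), with 4 and 16 cells left out. Unthinned shares were 61.7% and 0.550%, at medians of 6456 and 4958 UMIs. The ratio to mature OSN-like cells was 242 (103 to 749). Bowman's gland-like cells had 51.1 and 83.7 CPM in the libraries, with 118 CPM in gland cluster 26, and sustentacular-like cells had 35.3 CPM, with a UMI in 6.44% of thinned and 19.1% of unthinned cells. Cox8b gave 10.6% of Cox8 UMIs in ionocyte-like cells, so Cox8a, at 2256 CPM, stayed the main form.

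Ndufa4l2 (chromosome 10, 127514967 to 127517154, plus strand) and Cox4i2 (chromosome 2, 152754173 to 152765037, plus strand), both known to respond to low oxygen, were highest in the 26 mural-like cells. Ndufa4l2 was at 932 CPM in library 1 and 983 CPM in library 2 (81 UMIs in all), in 84.2% (60.4 to 96.6) of 19 thinned cells, and gave 55.5% of the UMIs of the Ndufa4 pair. Sustentacular-like cells had a UMI of it in 1 of 1645 thinned cells (0.0608%). Thinning left out 7 mural-like and 66 sustentacular-like cells, and unthinned shares were 80.8% and 0.0584%, at medians of 2930 and 6230 UMIs. Cox4i2 was at 518 and 437 CPM, in 57.9% (33.5 to 79.7) of the 19 cells (73.1% unthinned), and gave 38.6% of Cox4 UMIs. Ensheathing glia-like cells, which wrap the olfactory axons, came second for Cox4i2 with 99.96 and 97.0 CPM, in 20.8% (12.2 to 32.02) of 72 cells (33.8% unthinned, with 8 left out). In endothelial-like cells Cox4i2 was at 92.7 and 12.4 CPM, and 3 cells held 87.5% of its UMIs. Neither OSN-like class had a Cox4i2 UMI.

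Cox7a1 (chromosome 7, 30184144 to 30186078, plus strand), the muscle isoform of a complex IV subunit, was low in every class. INP-like cells had 54.6 CPM, ensheathing glia-like cells 52.3 CPM, cluster 4 33.6 CPM and mature OSN-like cells 30.5 CPM, while GBC-like cells had 6.21 CPM. The counting intervals of INP-like (41.5 to 70.6) and glia-like cells (33.5 to 77.9) overlap, and so do those of cluster 4 (26.6 to 41.8) and mature OSN-like cells (25.6 to 35.99). In mature OSN-like cells Cox7a1 stood at 17.8 CPM in library 1 and 42.9 CPM in library 2.

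**Figure D4:**
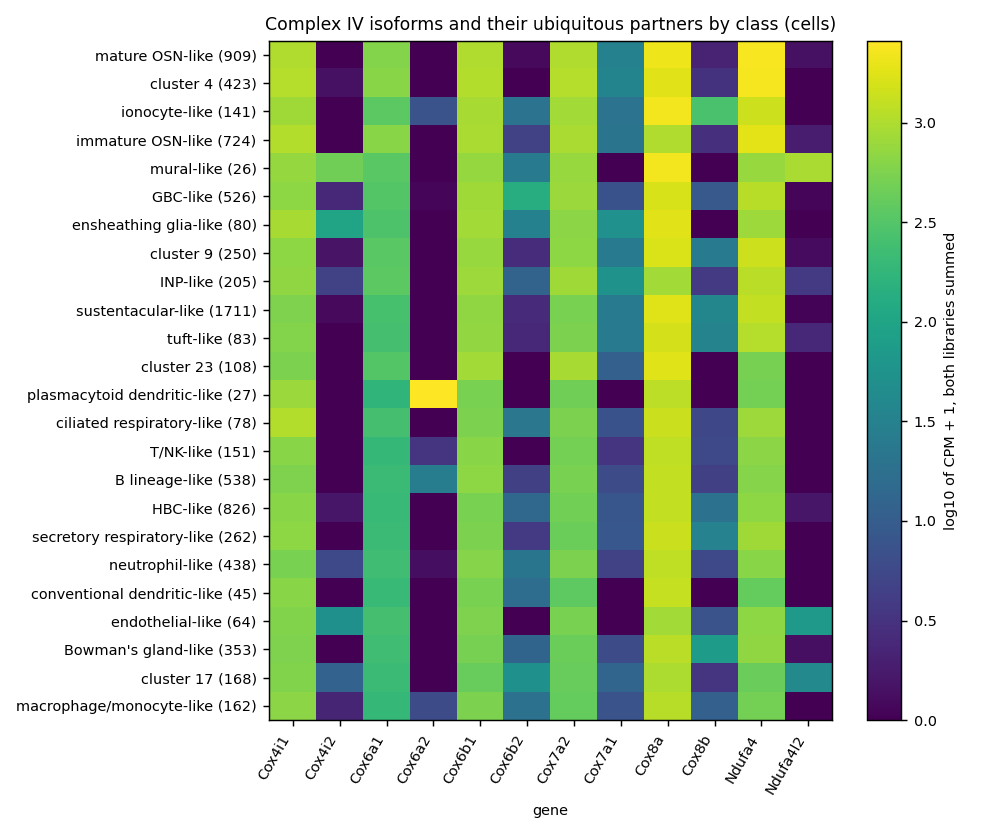
Colour gives log10 of CPM + 1 for complex IV isoforms and their ubiquitous partners (x axis) in each class or unnamed cluster (y axis, cells in brackets), both libraries summed. Partners are filled in nearly every class, whereas Cox6a2 stands out in plasmacytoid dendritic-like cells (2584 CPM), Ndufa4l2 and Cox4i2 in mural-like cells (966 and 465 CPM), Cox8b in ionocyte-like cells (267 CPM) and Cox6b2 in GBC-like cells (134 CPM).

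Between the libraries, the subunit genes differed little. Of 24 classes and unnamed clusters, 20 had a larger share in library 2. Of the 8 with at least 100 cells in each library, 6 did. HBC-like cells, the reserve stem cells, went from 2.12% to 2.43% of UMIs, a log2 ratio of library 2 over library 1 of 0.20 (0.18 to 0.21 from counting), with 67 of 73 members above 0 beside 55.6% of all genes. B lineage-like cells were at 0.18 (0.14 to 0.22; 62 of 72, beside 60.2%), and the 2 intervals overlap. This class pools clusters 13 and 7, with 34 and 104 cells in library 1 but 171 and 229 in library 2. Summed members went from 26059.5 CPM in library 1 to 28955 CPM in library 2 in cluster 13. In cluster 7 they went from 20260.5 to 19637 CPM. The part of the unequal mix of clusters in the ratio of this class was not tested. Thinned to 2000 UMIs, the mean cell went from 2.03% to 2.26% in HBC-like and from 2.23% to 2.52% in B lineage-like cells. Ratios were 0.10 in GBC-like (54 of 72, beside 50.9%), 0.08 for mature OSN-like cells (53 of 72, beside 49.6%) and 0.07 for the sustentacular-like class (53 of 73, beside 54.4%). Cluster 4 was at 0.03 (39 of 72, beside 52%), and immature OSN-like cells at -0.04 (28 of 72, beside 51.4%). Bowman's gland-like cells were at -0.07 (19 of 73, beside 29.4%), but all genes there were shifted by -0.16, and relative to that shift the members were at 0.09 with 54 above it. With 1 library a side, a difference between sides and a difference between 2 preparations cannot be told apart.

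Few members differed by 1.5-fold in either direction in these 8 classes. There were 3 in B lineage-like cells (background 40.2%), 2 in Bowman's gland-like cells (13.3%), 1 each in mature OSN-like (11.8%) and HBC-like cells (11%), and 0 in sustentacular-like (2.07%), immature OSN-like (16.1%), GBC-like cells (8.07%) and cluster 4 (17.3%). All backgrounds between libraries are of genes at 10 CPM or more. Most members (66 of 80 over all kept cells) lie at 100 CPM or more, where counting error is smaller, and no background was computed there. These low counts therefore do not show that members are more stable than other genes of their level. In mature OSN-like cells the 1 member past 1.5-fold was Cox7a1, at 40 and 98 UMIs (log2 1.22). Uqcr10, a small complex III subunit, was at 562 and 685 CPM (0.28), Ndufs1 also at 0.28, Cox7b at 0.26 and Cox4i1, the main form of subunit IV, at 0.22. Atp5s (-0.43), Uqcrc1 (-0.17), Atp5c1 (-0.11), Ndufb4 (-0.10) and Ndufs4 (-0.08) were at the low end. In sustentacular-like cells the largest were Cox8b (31.5 and 37.9 CPM, 0.26), Ndufb9 (377 and 438 CPM, 0.22), Atp5s (0.22) and Atp5k (0.21), and the smallest Cox7a1 (-0.23), Atp5a1 (376 and 340 CPM, -0.14), the alpha subunit of ATP synthase, and Atp5d (-0.13). In HBC-like cells the one was Cox8b, at 9.86 and 23.0 CPM on 19 and 67 UMIs. Transcripts of the 9 stress and apoptosis genes, which include Fos and Jun, were lower in library 2 in these 3 classes, at 15460 and 11744 CPM in HBC-like, 10094 and 7795 CPM in sustentacular-like and 1895 and 1412 CPM in mature OSN-like cells. In B lineage-like cells they were higher in library 2, at 1051 and 1343 CPM. Their part in the result was not tested.

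**Figure D5:**
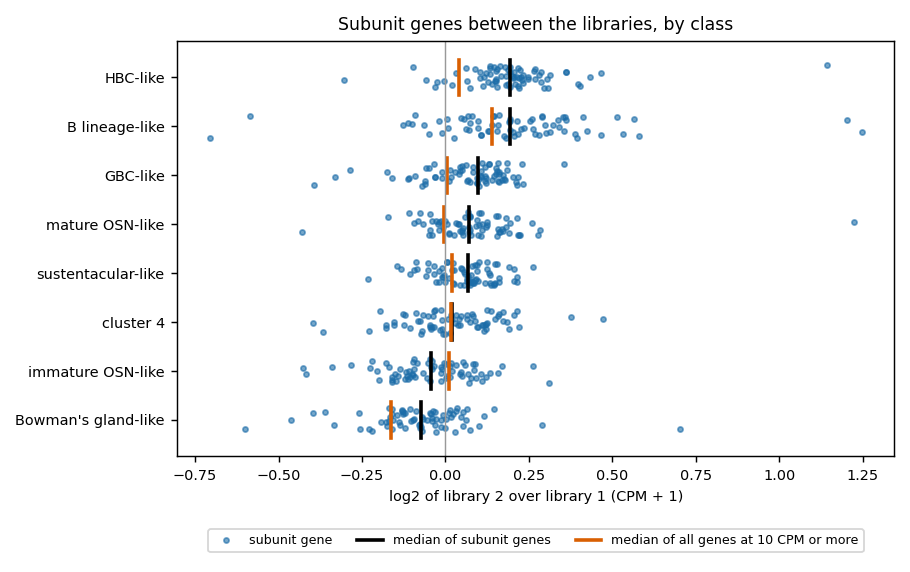
Log2 ratios of library 2 over library 1 (x axis, CPM + 1) for each subunit gene (dots) in the 8 classes or clusters with at least 100 cells in each library (y axis). Black bars are the medians of the subunit genes and orange bars those of all genes at 10 CPM or more. The black bar of HBC-like cells, at 0.19, lies farthest to the right of its orange bar, at 0.04.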

How the data were processed

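Single cells of 1 mouse were sequenced as 1 library from each side of the nose. Per the submitters' processing notes, the authors ran Cell Ranger 3.0.2 with mm10. A UMI count per gene and barcode is deposited as whole numbers, per the file headers, with symbols and barcodes beside it. The sources used here do not say whether depth was equalised when the libraries were joined. Gene positions are from GENCODE M21, in which all 80 IDs matched.

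Cells were kept with 1000 or more UMIs, 500 or more genes and no more than 10% mitochondrial UMIs. They were clustered on 2000 variable genes without the subunit genes, receptor, mitochondrial and Xist genes, with 30 principal components, 15 exact neighbours and the Leiden method at resolution 1.0. A cluster took the class with most markers, at least 3, among its 50 leading genes. It stayed unnamed on a tie, or where another class had more markers among the 10 leading genes. Low depth without a marker among those 10 also left it unnamed. Cluster 4 had 3 mature and 2 immature OSN markers, but only an immature one, Stmn4, was among its 10 leading genes. Scrublet called 7 of 8298 cells (0.0844%), under the 0.5% at which such a caller can be taken to have worked, so doublets were kept. Counts were summed per class and library to CPM, and differences are log2 of CPM + 1 for genes at 10 CPM or more. With 1 library a side, no test was possible.

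Members, lists and markers were chosen with earlier results of these data known. Named genes were the isoforms and their partners, the 3 highest members of each complex, the 5 largest differences in each direction between mature OSN-like and immature OSN-like or GBC-like cells and between libraries in mature OSN-like and sustentacular-like cells, with at least 50 UMIs, and the 3 largest per list, of which some genes are not reported here. Other genes named (such as Cox5a, Cox5b, Ndufb8, Atp5b, Uqcrc1, Cox8a and Ndufs1 in single comparisons, and the cluster pairs) were chosen after their values were seen. Clusters came from scanpy 1.11.5 with igraph 0.11.9, leidenalg 0.10.2 and scikit-learn 1.9.0, intervals from scipy 1.17.1 and figures from matplotlib 3.10.9, with pandas 2.3.3 and numpy 2.4.6 in Python 3.11.15.

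Promoter motifs were shortened to at most 9 letters after longer forms had been counted.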

Additional observations from a re-analysis of the deposited data

How the results depend on the processing

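Of 99 values recomputed under alternatives, 57 kept direction and size, 41 moved and 1 changed sign. Shares and ratios were said to move beyond their counting error, and counts of members by a change of more than 1.5-fold. No paired analysis was possible because each side has 1 library. Each library taken alone gives the class differences printed with them, and leaving out one leaves no comparison between libraries.

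The mature OSN-like share (4.53%) was 4.50% with no filter on cells, 4.60% at a limit of 5% mitochondrial UMIs, 4.24% at resolution 2.0, 5.11% without mitochondrial DNA-encoded, receptor and ribosomal genes, 4.46% as a mean of cells and 4.49% thinned. The sustentacular-like share (2.81%) was 2.60%, 3.25% (on 74 cells), 3.44% without those genes, 2.87% clustered with all variable genes and 2.79% thinned. Mature over immature OSN-like cells (log2 0.46) gave 0.47 at 5%, 0.43 at resolution 2.0 and 0.36 without those genes. Mature OSN-like over GBC-like cells (0.51) gave 0.53 at 5%, 0.53 with the highest doublet scores removed (109 and 337 cells), 0.41 at resolution 2.0, 0.26 without those genes and 0.50 as a mean of cells.

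The library ratio in mature OSN-like cells (0.08) was 0.11 at resolution 2.0 and 0.11 scaled by the median ratio. In HBC-like cells (0.20) it was 0.26 at 5%, 0.18 with doublet scores removed, 0.14 with all variable genes, 0.16 as a mean of cells and 0.16 thinned. Unfiltered nuclear over mitochondrial DNA-encoded ratios were 0.923 for mature OSN-like cells and 0.234 for the sustentacular-like class. Unthinned, Cox6b2 was in 55.9% of GBC-like and Cox8b in 61.7% of ionocyte-like cells, against 23.9% and 37.2% thinned, so depth limits such shares.

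The denominator without mitochondrial DNA-encoded, receptor and ribosomal genes was added for the member counts after the ribosomal share had been seen. Members below 0 became 16 for mature over immature OSN-like cells and 16 for mature OSN-like over GBC-like cells. For immature OSN-like over GBC-like cells, 4 were higher, 5 lower and 24 above 0, and the sum turned from 0.06 to -0.10. For mature OSN-like over sustentacular-like cells 2 were lower, with a sum of 0.57. The sum was 0.42 for ionocyte-like over sustentacular-like cells, -1.42 for cluster 10 over 15 and -0.45 for cluster 7 over 13, where 3 members were above 0. The cause of these moves was not tested.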
